A study of Homo sapiens with 3 samples.

Results

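The tumour necrosis factor (TNF) superfamily comprises ligands and their receptors, and 43 of its autosomal protein-coding genes were described here, of 19229 autosomal protein-coding genes in all. They were chosen by symbol from GENCODE on GRCh37: every gene whose symbol starts with TNFRSF or TNFSF, plus TNF, LTA, LTB, FAS, FASLG, CD40, CD27, CD70, LTBR and NGFR. Of these 26 encode receptors and 17 encode ligands, and the ligand count includes the readthrough gene TNFSF12-TNFSF13. A gene was said to have a peak in reach where a peak was centred in its body or no more than 100 kb from the transcription start (TSS) of any of its transcripts. Binding sites came from chromatin immunoprecipitation and sequencing (ChIP-seq) of Fra-1 and of Fra-2 in MDA-MB-231, an established breast cancer cell line that the labels call triple negative and basal b and for which they name no treatment. Both groups were the same line in medium with 10% fetal calf serum at 37 °C, and differed in the antibody. The labels state 2 independent replicates per antibody, but 1 peak list per antibody was analysed, so no value has a spread between replicates and no test between conditions was made. The lists held 9679 Fra-1 and 12695 Fra-2 peaks on the autosomes, with positions only, and the read depth behind them is unknown.

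TNF superfamily ligands are mostly trimeric membrane proteins that can be shed, and their receptors carry cysteine-rich outer domains. Receptors with a cytoplasmic death domain can recruit the adaptors TRADD or FADD and lead to caspase activation or to NF-kB. The others mainly bind TRAF adaptors and activate NF-kB and MAP kinases, and decoy receptors bind ligand without a full signal. Fra-1 and Fra-2, the products of FOSL1 and FOSL2, bind DNA with Jun proteins as AP-1, a factor that MAP kinases downstream of these receptors activate.

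Most superfamily genes had a Fra-2 peak in reach. Of the 43 genes, 36 had a Fra-2 peak (83.7%, 95% exact binomial interval 69.3 to 93.2), where the share over all genes was 60.5%. A Fra-1 peak was in reach of 27 genes (62.8%, 46.7 to 77.0), against 46.7% of all genes, a share at the lower end of that interval. Each of the 27 also had a Fra-2 peak, so 27 genes had both, against 44.1% of all genes, and 0 had Fra-1 alone, against 2.63%. The other 9 genes with a peak had Fra-2 alone, against 16.4% of all genes, and 36 genes had a peak of either list, against 63.1%. Intervals cover counting error only, and the genes are not independent. Many lie in tandem: 24 of the 43 genes fall into 9 loci of 2 or more genes, and 13 Fra-1 and 22 Fra-2 peaks were in reach of more than 1 member. Counted by locus, 17 of 28 loci had a Fra-1 peak and 22 of 28 a Fra-2 peak. A locus takes in the reach of all its genes, so the shares over all genes are not its background. No share over loci of the whole genome was computed. The superfamily genes were shorter than genes in general, with a median length of 14.5 kb against 27.6 kb, and had the same median number of other protein-coding genes within 100 kb, 3 in both cases. The excess over all genes was smaller among peaks at least 200 bp wide, where 34.9% of the superfamily had a Fra-1 peak and 46.5% a Fra-2 peak, against 29.2% and 41.0% of all genes.

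**Figure D1:**
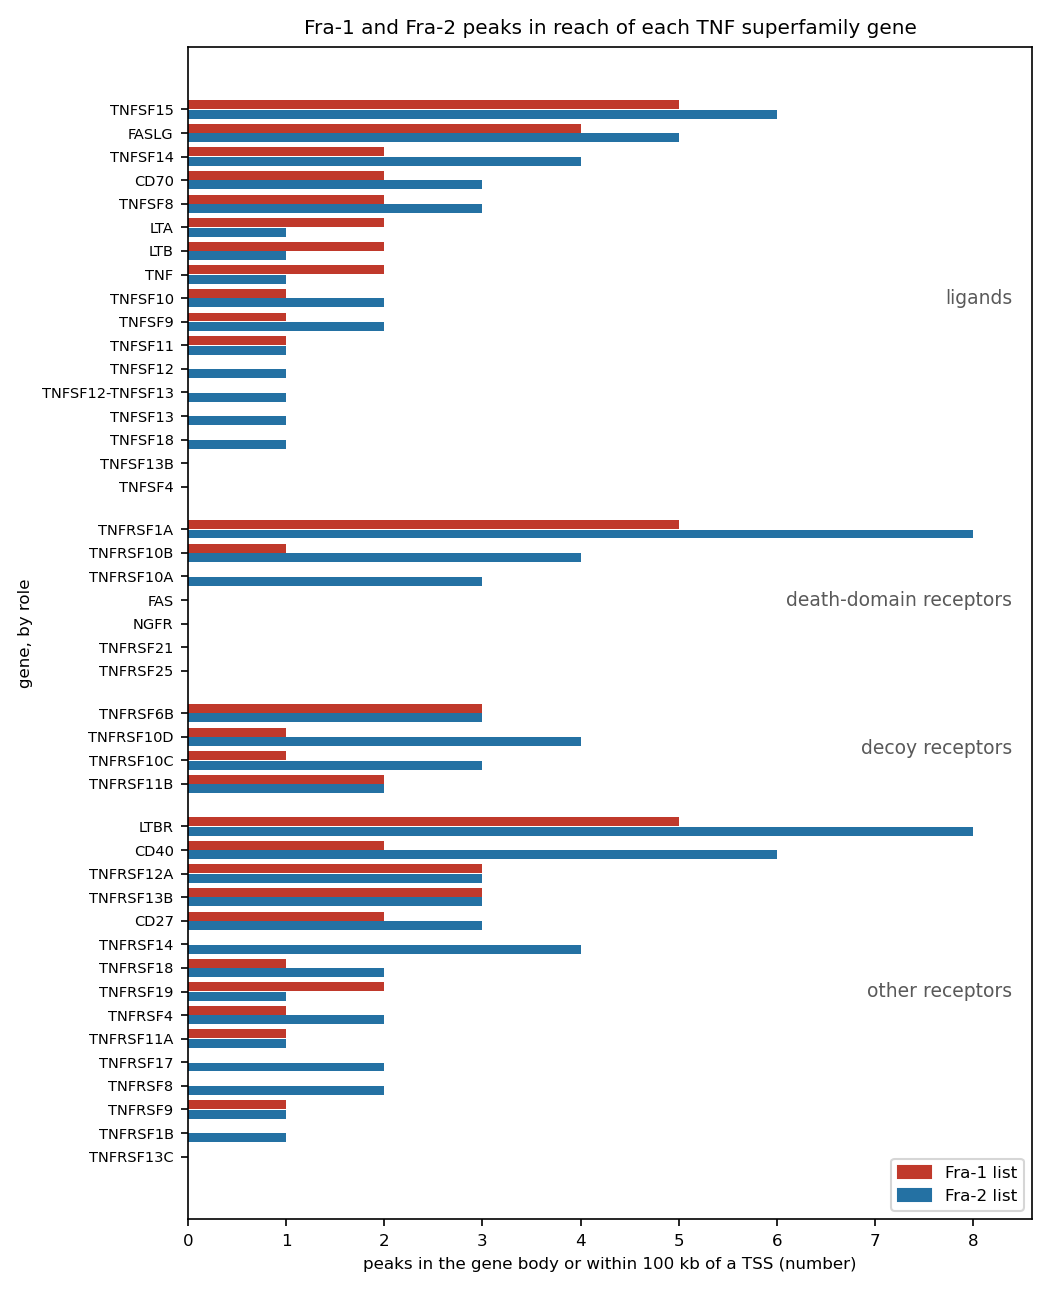
Number of Fra-1 peaks (red) and Fra-2 peaks (blue) in reach of each of the 43 genes, on the x axis, with the genes grouped by role on the y axis. TNFRSF1A and LTBR, which share their peaks, have the longest bars with 5 Fra-1 and 8 Fra-2 peaks, and 7 genes, 4 of them death-domain receptors, have none.

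Of the peaks in reach, 10 from the Fra-1 list and 20 from the Fra-2 list were closer than 10 kb to a TSS of a superfamily gene. Within 10 kb of a TSS, 7 genes had a Fra-1 peak and 14 a Fra-2 peak (16.3% and 32.6%), where all genes gave 11.7% and 18.3%. The 14 with Fra-2 included all 7 with Fra-1, so 14 had a peak of either list, against 19.7% of all genes. Within 1 kb only 1 gene had a Fra-1 peak and 3 had a Fra-2 peak, against 2.85% and 5.29% of all genes. The 3 genes were TNFRSF12A, TNFRSF1A and CD40. Within 25 kb the share with a Fra-2 peak was 55.8% of the superfamily against 29.9% of all genes. Peaks centred in the gene body were found in 5 genes for Fra-1 and 8 for Fra-2, against 13.1% and 18.2% of all genes.

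**Figure D2:**
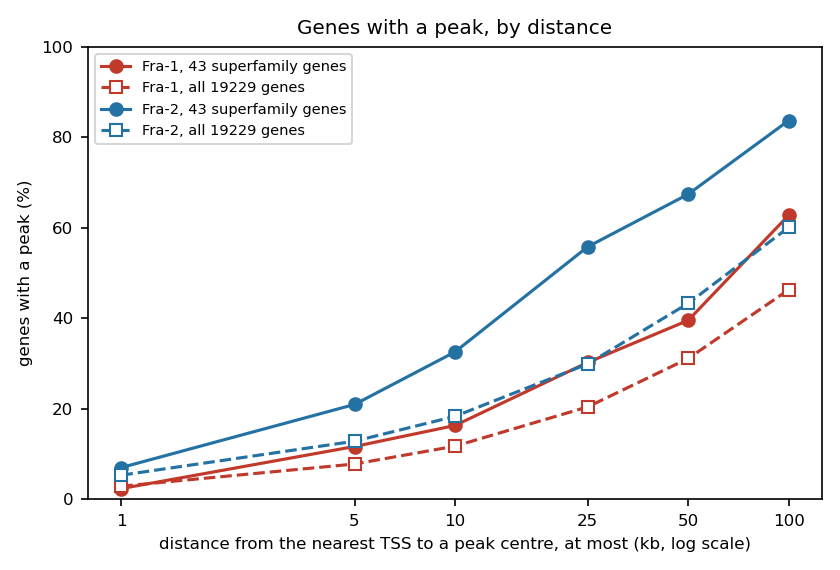
Percentage of genes with a peak centre within a given distance of a TSS (x axis, kb, log scale) for the 43 superfamily genes (solid lines) and all 19229 genes (dashed lines), gene bodies not counted. The Fra-2 line of the superfamily reaches 55.8% at 25 kb and 83.7% at 100 kb, and at 1 kb the lines lie close together.

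In all 39 Fra-1 and 66 Fra-2 peaks were in reach, at 72 separate sites. Both lists had a peak at 32 of these sites, Fra-2 alone at 33 and Fra-1 alone at 7. The sequences below show the peaks that the account of single loci turns on, each as the 201 bases around the peak centre in which elements were sought. They are a selection over 6 loci: the nearest peak of a locus, shared where there is one, with both peaks of TNFRSF1A and that of TNF added after the values were seen. Capitals mark TGACTCA or its reverse complement TGAGTCA, the AP-1 element, and all sequences are the plus strand of GRCh37.
TNFRSF12A, Fra-2 peak, chr16:3070876-3071076: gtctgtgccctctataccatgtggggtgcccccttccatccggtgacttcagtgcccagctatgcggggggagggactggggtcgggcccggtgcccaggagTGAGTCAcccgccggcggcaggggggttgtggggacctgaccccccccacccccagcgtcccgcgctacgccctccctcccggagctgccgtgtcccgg
TNFRSF1A, Fra-1 peak, chr12:6445451-6445651: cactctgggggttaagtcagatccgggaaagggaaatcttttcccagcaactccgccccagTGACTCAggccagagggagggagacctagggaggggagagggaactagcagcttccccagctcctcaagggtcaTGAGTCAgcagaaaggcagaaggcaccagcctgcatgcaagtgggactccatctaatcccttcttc
TNFRSF1A, Fra-1 peak, chr12:6454651-6454851: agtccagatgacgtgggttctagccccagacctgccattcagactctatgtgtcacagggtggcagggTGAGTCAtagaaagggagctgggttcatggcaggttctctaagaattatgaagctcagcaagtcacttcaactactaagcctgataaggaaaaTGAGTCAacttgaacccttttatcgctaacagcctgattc
LTBR, Fra-2 peak, chr12:6481951-6482151: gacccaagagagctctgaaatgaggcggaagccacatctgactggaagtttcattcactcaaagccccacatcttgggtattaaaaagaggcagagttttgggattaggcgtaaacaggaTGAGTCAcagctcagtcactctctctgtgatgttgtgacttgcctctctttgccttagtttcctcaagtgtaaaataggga
TNFRSF1B, Fra-2 peak, chr1:12221951-12222151: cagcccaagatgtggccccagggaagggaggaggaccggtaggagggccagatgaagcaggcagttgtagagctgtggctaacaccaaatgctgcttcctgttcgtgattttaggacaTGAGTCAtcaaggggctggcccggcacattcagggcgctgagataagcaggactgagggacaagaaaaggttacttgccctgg
TNF, Fra-1 peak, chr6:31528226-31528426: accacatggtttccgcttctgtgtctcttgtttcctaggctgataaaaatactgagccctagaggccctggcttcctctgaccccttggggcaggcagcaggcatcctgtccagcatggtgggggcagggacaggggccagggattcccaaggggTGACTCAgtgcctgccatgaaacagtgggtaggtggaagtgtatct
FASLG, Fra-1 peak, chr1:172608051-172608251: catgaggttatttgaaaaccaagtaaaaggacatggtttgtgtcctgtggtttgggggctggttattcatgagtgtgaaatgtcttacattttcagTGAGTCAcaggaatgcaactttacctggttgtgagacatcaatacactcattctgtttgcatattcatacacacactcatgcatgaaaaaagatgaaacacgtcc
TNFSF8, Fra-2 peak, chr9:117657201-117657401: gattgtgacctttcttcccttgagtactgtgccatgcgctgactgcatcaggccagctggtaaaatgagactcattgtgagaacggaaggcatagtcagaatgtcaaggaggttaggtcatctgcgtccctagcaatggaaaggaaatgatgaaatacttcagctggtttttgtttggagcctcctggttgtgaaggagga
The element in capitals was in 7 of these 8 windows. Windows of other loci picked by the same rule, those of CD40, CD70, TNFRSF6B, TNFRSF13B and TNFRSF19, are not printed. The only shared pair of TNFRSF13B did not hold the element. The 7 of 8 is therefore no measure of how common the element is. The TNFRSF12A window lies in intron 1, the first TNFRSF1A window in intron 1 and the second upstream of the gene. The window of TNFSF8 has none, although both lists called a peak there.

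Across all peaks in reach the AP-1 element was the most frequent of the elements sought. No more than 100 bp from the centre, it was found in 28 of 39 Fra-1 peaks (71.8%, 55.1 to 85.0) and 52 of 66 Fra-2 peaks (78.8%, 67.0 to 87.9). Peaks in reach of any protein-coding gene held it in 64.1% and 74.5% of cases, within those intervals. Of 33146 windows of 201 bp in the same regions but outside every peak, 3.05% held it. The regions in reach of the 43 genes spanned 6.69 Mb and held 1134 copies of the element, of which 65 (5.73%) lay in a peak of either list. Of the Fra-1 peaks 82.1% (66.5 to 92.5) overlapped a Fra-2 peak by at least 1 bp, and of the Fra-2 peaks 33 of 66 (interval 37.4 to 62.6%) overlapped a Fra-1 peak. The same shares near any gene were 80.6% and 57.8%. The 33 Fra-2-only peaks held the element in 75.8% of cases, and the 7 Fra-1-only peaks in 3 cases. Among all autosomal peaks found in 1 list the shares were 77.6% for Fra-2 and 39.4% for Fra-1.

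Other elements were rarer. The RUNX element TGTGGTT lay in 12 Fra-2 peaks (18.2%, 9.76 to 29.6), against 6.69% near any gene. In the Fra-1 list it lay in 6 peaks (15.4%, 5.86 to 30.5), against 7.35% near any gene, which is inside the interval. The peaks of both lists together made 12 sites, and 3.54% of the windows outside peaks held the element. The Fra-2 peaks are not independent, as neighbouring peaks in reach of TNFSF15 lay at the same site. Another, in reach of TNFRSF14, lay in repeat-like sequence. The RUNX element was 1 of 5 kinds of element looked at, and its share was noticed afterwards. The NF-kB consensus, a loose motif of 10 bases, lay in 8 of 66 Fra-2 peaks (12.1%, 5.38 to 22.5) against 4.54% near any gene, and in 4.96% of windows outside peaks. In the Fra-1 list it lay in 3 of 39 peaks (7.69%, 1.62 to 20.9), and the 4.36% near any gene is inside the interval. The NF-kB consensus was also 1 of the 5 kinds looked at. Part of its 8 Fra-2 peaks came from the TNFRSF10 cluster, including a pair of sites with like windows, so they are not independent. The TEAD element, GGAATGC or GGAATGT, lay in 5 Fra-1 peaks (12.8%) and 5 Fra-2 peaks (7.58%), against 14.4% and 11.8% near any gene. The cyclic AMP response element was in none of the 39 and 66 peaks, which allows shares of up to 9.03% and 5.44% (exact binomial). All motifs were sought on both strands, and a match is a description of the sequence.

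**Figure D3:**
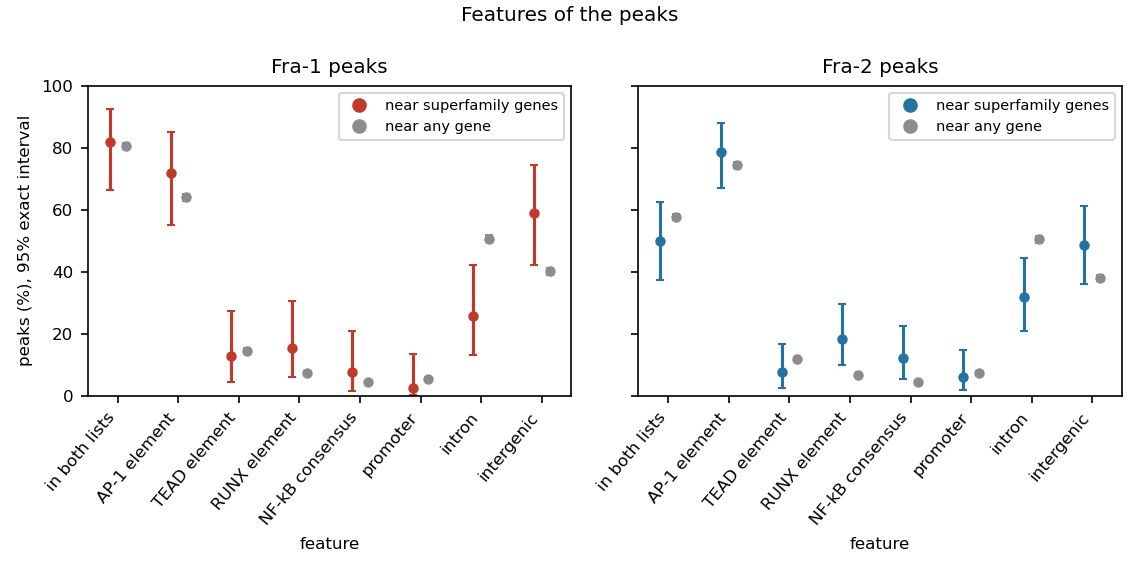
Percentage of peaks (y axis, with 95% exact binomial intervals) that have each feature on the x axis, for peaks in reach of superfamily genes (coloured) and of any protein-coding gene (grey), Fra-1 left and Fra-2 right. The intervals of the AP-1 element and of sharing include the grey values, while the intron shares, 25.6% for Fra-1 and 31.8% for Fra-2, lie below 50.7% and 50.4%.

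Peaks near these genes lay less often in introns. Outside promoters and exons, introns of protein-coding genes held 25.6% (13.0 to 42.1) of the Fra-1 and 31.8% (20.9 to 44.4) of the Fra-2 peaks. The shares near any gene were 50.7% and 50.4%. Intergenic sequence held 59.0% (42.1 to 74.4) and 48.5% (36.0 to 61.1). Near any gene it held 40.2%, below the first interval, and 38.1%, inside the second. Exon sequence outside promoters and coding exons held 10.3% (2.87 to 24.2) and 10.6% (4.37 to 20.6). Near any gene it held 3.02%, inside the first interval, and 3.20%, below the second. The shorter genes noted above go with the lower intron shares, and their part in them was not tested. Median width was 150 bp in both lists, as for peaks near any gene. The nearest TSS of any protein-coding gene belonged to a superfamily gene for 19 of 39 peaks of Fra-1 and for 30 of 66 of Fra-2, so 36 of the latter lay nearer to another gene.

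Among the death-domain receptors 2 of 7 had a Fra-1 peak (28.6%, 3.67 to 71.0) and 3 of 7 a Fra-2 peak (42.9%, 9.90 to 81.6). The shares over all genes, 46.7% and 60.5%, lay inside these intervals. TNFRSF1A, the main receptor of soluble TNF (minus strand of chromosome 12, 6437923 to 6451280), was in reach of 5 Fra-1 and 8 Fra-2 peaks, and all 5 Fra-1 peaks were shared. It was the nearest gene for 2 of the 5 and 3 of the 8, and the others lay nearer to PLEKHG6 or SCNN1A. The share of all genes with 5 or more peaks was 3.45% for Fra-1 and 7.55% for Fra-2. One shared pair, 6445501 to 6445601 for Fra-1 and 6445451 to 6445651 for Fra-2, lay in intron 1, 5.69 kb downstream of the canonical TSS. Another, 6454601 to 6454901 for Fra-1 and 6454551 to 6454901 for Fra-2, was centred 3.51 and 3.48 kb upstream. Each of these pairs held 2 copies of the element, printed above. A Fra-2-only peak at 6441801 to 6441951 lay in intron 5, 0.732 kb from the TSS of a shorter transcript and 9.37 kb from the canonical one. All 8 Fra-2 peaks and 4 of the 5 Fra-1 peaks held the element.

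The TRAIL receptor genes TNFRSF10A and TNFRSF10B, whose products have death domains, and the decoys TNFRSF10C and TNFRSF10D form a cluster on chromosome 8. It had 6 Fra-2 peaks in reach, all with the AP-1 element, and 1 Fra-1 peak. The single shared peak, from 22932201 to 22932401 in both lists, lay 5.76 kb upstream of TNFRSF10B. Fra-2-only peaks lay in intron 1 of TNFRSF10B (22922101 to 22922351, with 2 copies of the element), in intron 1 of TNFRSF10A (23075701 to 23075851) and 5.86 kb downstream of the nearest TSS of TNFRSF10C, past its end (22977801 to 22977951). These 4 sites also held the NF-kB consensus, and the other 2 of the 6, at 22844601 to 22844701 and 23154751 to 23154901, did not. The AP-1 element and the NF-kB consensus stood together in 7 of the 66 Fra-2 peaks (10.6%) and 2 of the 39 Fra-1 peaks (5.13%) near the superfamily, against 3.08% and 2.54% of all autosomal peaks. The 4 sites just named are among the 7, and no share near any gene was taken for the pair. In the Fra-2 list each element alone was commoner near any gene than in all autosomal peaks (74.5% against 68.5%, and 4.54% against 4.19%). The windows of the TNFRSF10C and TNFRSF10A sites were like each other on opposite strands, with 171 of 201 bases identical after alignment (85.1%), while the other 14 pairs of windows in reach of the cluster had 55.2% to 61.7%. TNFRSF10B was in reach of 1 Fra-1 and 4 Fra-2 peaks, TNFRSF10C of 1 and 3, TNFRSF10D of 1 and 4, and TNFRSF10A of 0 and 3. No peak lay in the body of TNFRSF10C or TNFRSF10D.

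The remaining 4 death-domain receptor genes had no peak in reach. FAS, the receptor of FASLG, was just outside: the nearest peak of both lists, from 90646451 to 90646551 on chromosome 10, lay 104 kb from a TSS. For TNFRSF21 the nearest peaks of both lists lay 121 kb away, and for TNFRSF25, the receptor of TNFSF15, 135 kb. NGFR, the low-affinity neurotrophin receptor, was 348 kb from a Fra-1 and 149.6 kb from a Fra-2 peak. On the inner side of the limit lay TNFRSF9 at 97.6 kb and TNFRSF11A at 93.4 kb for both lists.

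**Figure D4:**
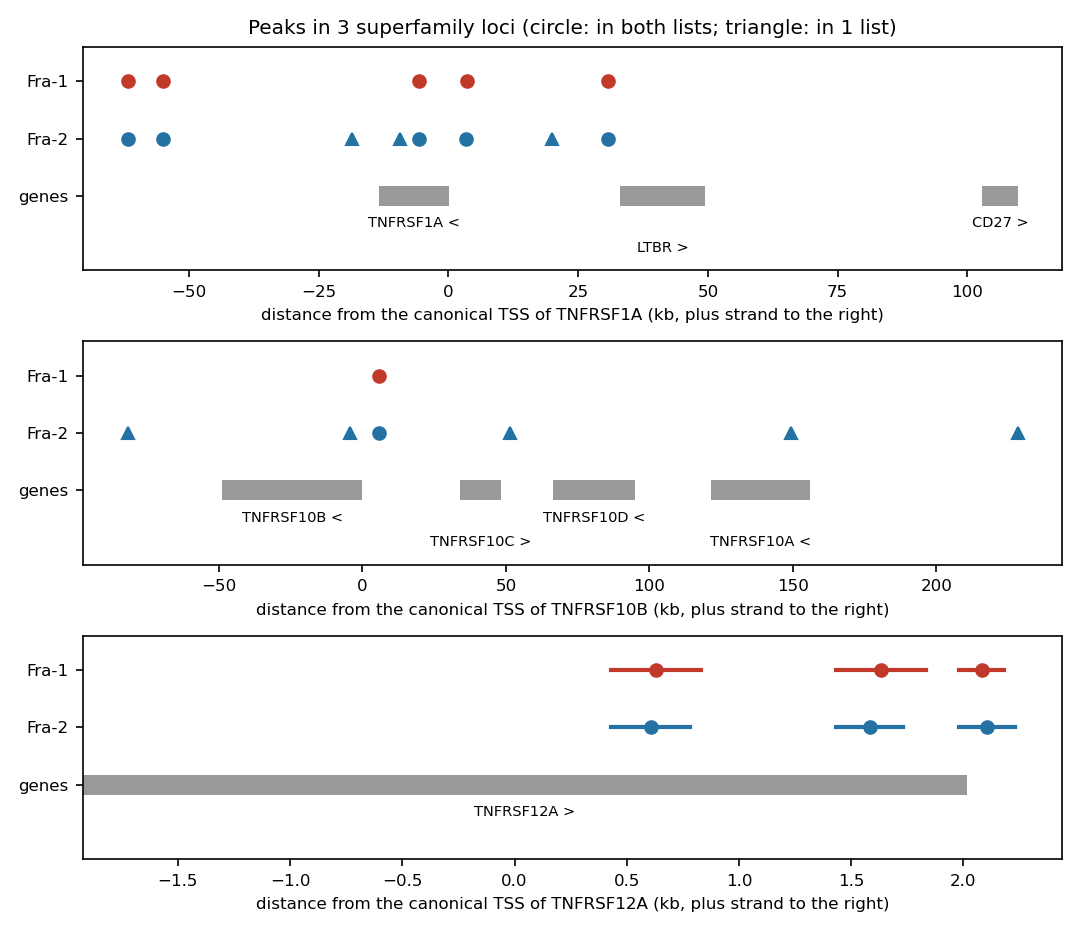
Peak centres (circles in both lists, triangles in 1 list) and gene bodies (grey bars, arrowheads give the strand) along 3 loci, as distance in kb from the canonical TSS of TNFRSF1A, TNFRSF10B and TNFRSF12A, with lines for peak width in the last panel. In the TNFRSF10 locus 1 of 6 sites has a Fra-1 peak, and in the TNFRSF12A locus all 3 have one.

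All 4 decoy receptor genes had peaks of both lists, against 44.1% of all genes, a share inside the interval of 39.8 to 100%. The Fra-1 peak of TNFRSF10C and of TNFRSF10D was the same peak, and it lay nearest to TNFRSF10B. TNFRSF6B, a soluble decoy for FASLG and TNFSF14 (chromosome 20, 62328005 to 62330037), had 3 peaks in each list, all shared and all with the element. One was the widest site near any of the 43 genes, 450 bp for Fra-1 (62313801 to 62314251) and 500 bp wide for Fra-2 (62313751 to 62314251). The Fra-2 peak was 0.111 kb from a TSS of RTEL1 and 14.0 kb from TNFRSF6B. The pair nearest to TNFRSF6B, 2.70 kb from its TSS in the Fra-1 list, was 0.952 kb from a TSS of ARFRP1. TNFRSF11B, the osteoprotegerin gene, is a soluble decoy for TNFSF11 and had 2 shared pairs, at 23.7 kb and 31.7 kb from its nearest TSS, with no other protein-coding TSS nearer.

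Of the 15 other receptor genes 10 had a Fra-1 peak (66.7%, 38.4 to 88.2) and 14 a Fra-2 peak (93.3%, 68.1 to 99.8). All genes gave 46.7%, inside the first interval, and 60.5%, below the second. Neighbours among these genes shared peaks, so they are not independent. TNFRSF12A was the one with peaks of both lists within 1 kb of a TSS. It encodes the receptor of the ligand TWEAK (TNFSF12) and lies on chromosome 16 from 3068446 to 3072384 on the plus strand, with the canonical TSS at 3070369. It had 3 Fra-1 and 3 Fra-2 peaks, all shared and centred 0.607 to 2.11 kb past that TSS. The first, 3070801 to 3071201 for Fra-1 and 3070801 to 3071151 for Fra-2, was centred in intron 1, 0.632 and 0.607 kb from the TSS. The next, 3071801 to 3072201 for Fra-1 and 3071801 to 3072101 for Fra-2, was centred in the 3′ untranslated region of the canonical transcript and held no TGACTCA, but the looser TGANTCA, with any base at N, and the RUNX element. The last, 3072351 to 3072551 in the Fra-1 list, had 2 copies of the element and lay past the 3′ end, nearer to a TSS of HCFC1R1. The Fra-1 peaks were 400, 400 and 200 bp wide. The gene of its ligand, TNFSF12, had a single Fra-2 peak, 32.0 kb from a TSS, which it shared with TNFSF13 and TNFSF12-TNFSF13 and which lay nearer to MPDU1.

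LTBR, the receptor of membrane lymphotoxin, lies beside TNFRSF1A (chromosome 12, 6484211 to 6500737, plus strand) and was in reach of the same 5 Fra-1 and 8 Fra-2 peaks. All of these lay nearer to a TSS of another gene. The nearest pair, 6481901 to 6482051 for Fra-1 and 6481951 to 6482151 for Fra-2, was 2.24 and 2.16 kb from an alternative TSS and 11.4 and 11.3 kb from the canonical one, in an intron of SCNN1A. The element lay within 100 bp of the Fra-2 centre and not of the Fra-1 centre. CD27, a costimulatory receptor of T cells and the third gene of the locus, was 72.1 kb from this site, its nearest, and had 2 Fra-1 and 3 Fra-2 peaks. CD40, which drives B cell and dendritic cell activation (chromosome 20, 44746910 to 44758502), had 2 Fra-1 and 6 Fra-2 peaks. One Fra-2-only peak, from 44750701 to 44750901, was in intron 2, 0.076 kb from the TSS of a short transcript and 3.85 kb from the canonical TSS. It held the AP-1 and RUNX elements. The other site upstream was 33.0 kb away, and the 4 downstream, from 80.6 kb on, lay in introns and nearer to CDH22.

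TNFRSF13B, a receptor of B cells for TNFSF13 and TNFSF13B, had 3 peaks in each list at 5 sites, and only 1 site was shared. In its intron 3 lay a Fra-1-only peak (16846051 to 16846151, 1.73 kb from the TSS of a short transcript) and a Fra-2-only peak (16850101 to 16850201), and all its peaks were 100 bp wide, the smallest width near these genes. TNFRSF1B, the second TNF receptor, had 1 peak, in the Fra-2 list at 12221951 to 12222151 on chromosome 1, 5.00 kb upstream of its TSS. TNFRSF8, its neighbour, had this peak and another 11.1 kb upstream, and neither gene had a Fra-1 peak. TNFRSF19 had a Fra-1-only peak in intron 4 and a shared pair in its 3′ untranslated region. TNFRSF14, a receptor of TNFSF14, had 4 Fra-2 peaks and no Fra-1 peak, and 3 of the 4 lay in repeat-like sequence of an intron near MMEL1. Without them it had 1 Fra-2 peak, 20.5 kb from a TSS. TNFRSF17, a receptor of plasma cells, had 2 Fra-2-only peaks, both at promoters of other genes. TNFRSF4 and TNFRSF18, costimulatory receptors of T cells, were 58.4 kb (TNFRSF18) and 50.8 kb (TNFRSF4) from a shared peak near UBE2J2, their nearest. TNFRSF13C, a B cell receptor for TNFSF13B, had none, and its nearest Fra-1 peak was 361 kb away.

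Of the 17 ligand genes 11 had a Fra-1 peak (64.7%, 38.3 to 85.8) and 15 a Fra-2 peak (88.2%, 63.6 to 98.5). All genes gave 46.7%, inside the first interval, and 60.5%, below the second. The ligand genes are not independent. TNFSF12, TNFSF13 and TNFSF12-TNFSF13 had the same single Fra-2 peak in reach, and TNF, LTA and LTB had another in common. Within 10 kb 1 of the 17 had a Fra-1 peak and 4 had a Fra-2 peak, where all genes gave 11.7% and 18.3%, and counts this small are not set apart from those shares. TNF and the lymphotoxin genes LTA and LTB lie side by side on chromosome 6 and had 2 Fra-1 peaks and 1 Fra-2 peak between them. The shared pair, 31528201 to 31528451 for Fra-1 and 31528151 to 31528501 for Fra-2, was 11.5 kb upstream of LTA, 15.0 kb upstream of TNF and 21.9 kb downstream of LTB. The other Fra-1 peak, from 31527851 to 31527951, was beside it. No peak of either list lay in these 3 genes or between them.

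FASLG, the ligand of FAS (plus strand of chromosome 1, 172628243 to 172636016), was in reach of 4 Fra-1 and 5 Fra-2 peaks, and each of the 9 held the element. The shared pairs lay 70.2, 21.3 and 20.1 kb upstream and 87.4 kb downstream in the Fra-1 list, and the Fra-2-only peak, from 172623751 to 172623951, was the nearest at 4.39 kb upstream. The pair at 20.1 kb spanned 172608001 to 172608301 in both lists and held the AP-1, TEAD and RUNX elements.

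TNFSF15, the ligand of TNFRSF25, had the most peaks of the ligand genes, 5 Fra-1 and 6 Fra-2, although the nearest was 12.5 kb away. It shares 2 pairs with TNFSF8, the ligand of TNFRSF8. Those pairs, which for Fra-1 span 117655951 to 117656201 and 117657151 to 117657401, lie in the TNFSF8 gene body but past the end of its canonical transcript. They were 10.5 and 9.31 kb from an alternative TSS and 36.8 and 35.6 kb from the canonical one, and none of their windows held TGANTCA. CD70, the ligand of CD27, had a shared pair 10.6 kb from its TSS past its 3′ end (6580451 to 6580601 on chromosome 19 in the Fra-1 list) and a Fra-2-only peak (6611051 to 6611201) 7.01 kb upstream of another TSS. Its other 2 sites, 1 in each list alone, were also in reach of TNFSF14. TNFSF9, a costimulatory ligand, had 1 Fra-1 and 2 Fra-2 peaks, all of them at the sites nearest to CD70. TNFSF14, a ligand of LTBR and TNFRSF14, was in reach of 4 Fra-2 and 2 Fra-1 peaks. Its nearest was Fra-2-only, from 6674951 to 6675151, 4.45 kb upstream of a TSS and 3.29 kb from one of C3. Of the rest, TNFSF10, the TRAIL gene, had a shared peak at 55.9 kb and a Fra-2-only peak at 18.0 kb, and TNFSF11, the osteoclast differentiation factor that binds TNFRSF11A, had 1 peak in each list at different sites. TNFSF18, the ligand of TNFRSF18, had a Fra-2-only peak at 11.4 kb. TNFSF4, the ligand of TNFRSF4, and TNFSF13B, a B cell survival factor, had none, and TNFSF13B was 415 kb from the nearest Fra-1 peak and 613 kb from the nearest Fra-2 peak.

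**Figure D5:**
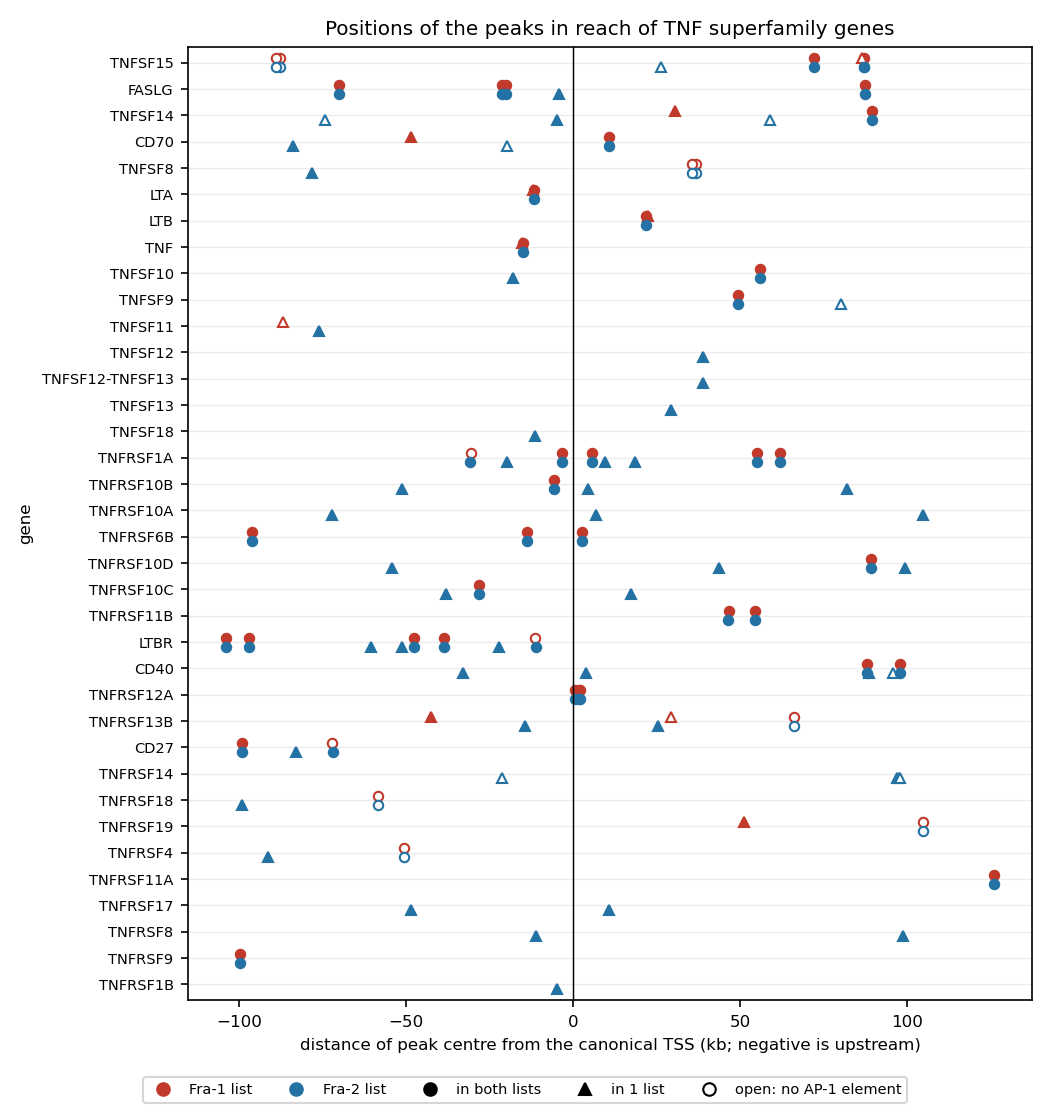
Distance in kb of each peak centre from the canonical TSS (x axis, negative upstream) for the 36 genes with a peak (y axis); red marks Fra-1, blue Fra-2, circles peaks in both lists, triangles peaks in 1 list, open marks peaks without the AP-1 element. TNFRSF12A has all its peaks beside the TSS, while those of TNF, LTA and LTB are the same 2 sites seen from 3 genes.

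The signalling side of the pathway was covered by a list of 30 further genes for adaptors, kinases, caspases, ubiquitin enzymes and the sheddase ADAM17. It gave 18 of 30 with a Fra-1 peak (60.0%, 40.6 to 77.3) and 23 of 30 with a Fra-2 peak (76.7%, 57.7 to 90.1), against 46.7% and 60.5% of all genes. Within 1 kb of a TSS 2 of the 30 had a Fra-1 and 5 a Fra-2 peak, against 2.85% and 5.29% of all genes. The genes on this list had a median of 9.5 TSSs and a median length of 39.3 kb. All genes had medians of 5 TSSs and 27.6 kb. Distance is to any TSS, and the part of this in the counts was not tested. MAP3K14, the kinase of the noncanonical NF-kB pathway, had 5 peaks in each list, with pairs 2.56 and 4.03 kb from a TSS and another in an intron (43370851 to 43371201 on chromosome 17 in the Fra-1 list). TNIP1, a partner of the NF-kB inhibitor TNFAIP3, had 3 Fra-1 and 7 Fra-2 peaks, among them a Fra-2-only peak at the promoter, 0.562 kb from its nearest TSS. FADD, the adaptor of death receptors, had 3 and 4 peaks, with a promoter pair 0.749 kb from its TSS (70050051 to 70050251 on chromosome 11 in the Fra-1 list) that held the element. RIPK1, a kinase of the TNF receptor complex, had 2 and 5, the nearest 39.8 kb away. ADAM17, which sheds TNF, had 2 and 3, among them a pair 1.21 kb from a TSS in an intron, and CASP8, the initiator caspase, had 2 and 3, with a Fra-2-only promoter peak at 202122651 to 202122901 on chromosome 2. ADAM17 and CASP8 tied at 5 peaks over both lists with IKBKB, RBCK1 and TNFAIP3, and were picked from these after their values were seen. No peak was in reach of BIRC2, BIRC3, CHUK, RIPK3, RNF31, TRAF1 and TRAF5.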

How the data were processed

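MDA-MB-231 chromatin was precipitated with an antibody against Fra-1 or Fra-2 and sequenced, and the input sample was not analysed here. The submitters' processing notes name Bowtie2 and hg19. How peaks were called, at what threshold, whether input was subtracted and how replicates were merged is not given in the sources used here. As deposited, the lists give the start and end of each peak and no score. Each of the 9998 Fra-1 and 13003 Fra-2 starts is 1 more than a multiple of 50, so they were read as 1-based, and coordinates are printed as the authors give them. Every nuclear peak fits within its GRCh37 chromosome.

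Gene models came from GENCODE release 44 lifted to GRCh37. Distances to a TSS use every transcript of a protein-coding gene. Promoter peaks were those at most 1 kb from the start of a transcript that is itself typed as protein coding, so a peak beside the start of a noncoding transcript was classed as exon, intron or intergenic. A shared peak overlapped the other list by at least 1 bp, and members with TSSs at most 200 kb apart formed a locus. Repeat-like peaks had over 20% recurring words of 10 bases in the 1000 bp to each side, or lay near a large assembly gap. Intervals are exact binomial (Clopper-Pearson, 95%). The 6 windows of the TNFRSF10 cluster were aligned globally with Biopython 1.88. Positions are given for members with a peak within 10 kb or in the gene body, and for up to 4 members per role with the most peaks; those of the TNF locus and of FAS were added after their values were seen. The members, roles and lists were chosen with earlier results of these data known. With no score deposited, width served as the stricter threshold. Peak assignment was tested on simulated data. The tools were samtools 1.23.1, pysam 0.24.0 and pandas 2.3.3 under Python 3.11.15, with scipy 1.17.1, numpy 2.4.6 and matplotlib 3.10.9.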

Additional observations from a re-analysis of the deposited data

How the results depend on the processing

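Of 98 values recomputed under 13 alternatives, 63 stayed within 1.5 times the main count or within its interval and 35 moved. Most moved because the alternative takes in fewer peaks or genes by construction. Under the alternatives, shares over all genes were taken only for each list alone. The counts of both and of either therefore have no background here, and nothing is read from them. With gene bodies or 10 kb, 8 members had a Fra-1 peak, 15 a Fra-2 peak, 8 both and 15 either, from 13 Fra-1 and 22 Fra-2 peaks, and 53.8% of the Fra-1 peaks held the AP-1 element; the pathway list gave 8 and 13 genes. All genes then gave 16.9% and 24.2%, against 18.6% and 34.9% of the members, so the Fra-1 share lay near the background. With 50 kb, 17 members had a Fra-1 peak and 17 both, from 25 Fra-1 and 43 Fra-2 peaks. The members' shares were then 39.5% for Fra-1 and 69.8% for Fra-2, against 32.2% and 44.4% of all genes. Where only the gene of the nearest TSS counted, 12 members had a Fra-1 peak, 18 a Fra-2 peak, 10 both and 20 either, from 19 and 30 peaks, and the pathway list gave 9 and 14 genes. All genes gave 19.6% and 25.9% there, against 27.9% and 41.9% of the members. By locus, 17 had a Fra-1 peak, 22 a Fra-2 peak, 17 both and 22 either. Among peaks at least 200 bp wide, 15 members had a Fra-1 peak, 20 a Fra-2 peak, 14 both and 21 either, from 18 and 27 peaks, and 6 pathway genes had a Fra-1 peak. Of these wide peaks 100% of Fra-1 and 74.1% of Fra-2 were shared, and 96.3% of Fra-2 held the element. With wide peaks the members' shares, 34.9% and 46.5%, lay near the 29.2% and 41.0% of all genes. No paired analysis was possible because 1 list per antibody was analysed. Depth is unknown, so the absence of a peak does not show the absence of binding.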
